A study of Mus musculus with 17 samples.

Results

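The 10 genes described here encode receptors of myeloid immune cells, the adaptor proteins through which such receptors signal, and 2 enzymes that act after them. They were taken by symbol from a table of 35321 gene symbols: the receptors Clec5a, Fcgr3, Fcgr2b and Clec12a, the adaptors Tyrobp, Fcer1g, Hcst and Lat2, and the enzymes Syk and Plcg2. Clec5a and Lat2 were chosen by their own measured values: Clec5a for its higher level in the groups given an antibody, and Lat2 for its high level at 72 h of lipopolysaccharide. All 10 passed the filter on low counts. The other 8 are called partner genes here. They are the adaptors Tyrobp, Fcer1g and Hcst, the enzymes Syk and Plcg2, and the receptors Fcgr3, Fcgr2b and Clec12a. The name does not mean that each of them signals together with Clec5a or Lat2. Values of Clec5a and Lat2 that show those patterns are therefore given as a description, without a test. The working name of the set, myeloid activating receptors and adaptors, holds for only some of its members, because Fcgr2b and Clec12a encode inhibitory receptors.

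The 17 RNA-seq libraries were made from sorted hematopoietic stem and progenitor cells (HSPC), from which all blood cells descend. The cells came from the bone marrow of wild-type C57BL/6J mice, an inbred laboratory strain. All groups came from that strain, and age and sex are not given in the sources used here. The PBS group (5 libraries, titled day 0) came from mice injected with phosphate-buffered saline. The LPS groups (3 libraries at 24 h and 3 at 72 h) came from mice injected into the abdomen with lipopolysaccharide, an inflammatory molecule of the outer membrane of bacteria. The LPS + antibody groups (3 libraries at 24 h and 3 at 72 h) received LPS too, and in addition an antibody against the interleukin-10 receptor (IL-10R), through which an anti-inflammatory cytokine acts. Antibody without LPS was not analysed here, and no PBS library carries a label of 24 h or 72 h. The sample protocol lists 5 mg of LPS and 100 mg of antibody, whereas the design text gives the same figures in micrograms, and neither was assumed to be right. The labels number the libraries but do not say that each came from a separate mouse, so p-values measure the spread between these libraries, which may be technical.

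As background, most activating receptors of myeloid cells have no signalling tail of their own. They assemble in the membrane with a small adaptor, Tyrobp (DAP12), Fcer1g (the Fc receptor gamma chain) or Hcst (DAP10). When a receptor is engaged, Src-family kinases phosphorylate the tyrosine motif of Tyrobp or Fcer1g, and the kinase Syk docks there. Syk then acts through scaffolds such as Lat2 (also called NTAL) on the phospholipase Plcg2, which releases calcium. Hcst recruits phosphatidylinositol 3-kinase instead. Inhibitory receptors such as Fcgr2b and Clec12a recruit phosphatases that oppose this chain. Only some of these genes, among them Clec5a and Clec12a, are known in bone marrow mainly from the granulocyte and monocyte lineages.

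Library totals ranged from 10516722 to 16006001 counts. All 8 stem and progenitor markers examined (among them Kit and Cd34) had counts in every library. Their summed level was 1571 to 2332 CPM (counts scaled to library size) with PBS and 922 to 1089 CPM at 24 h of LPS. LPS replicate 1 at 24 h stood apart in composition, with a scaling factor of 0.799 and 16431 genes detected. PBS replicate 2 stood apart in its markers of other cells. Its 21 monocyte and macrophage markers summed to 5193 CPM, against 990 to 1815 CPM in the other PBS libraries, and its 11 mature neutrophil markers to 1624 CPM. Calls of members that were lost without one of these libraries are marked as such. Other summaries include both libraries unless stated.

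Of the 10 genes, 8 had an entry in the RefSeq promoter table for GRCm38.p6 (all but Lat2 and Tyrobp). Each entry runs from 250 bases before the start of the gene to 50 bases after it. The promoters of the 4 genes below are shown because Clec5a and Fcgr2b were the pair of members with the highest correlation over all 17 libraries (r = 0.90, without a test; about the group means Fcgr3 and Fcgr2b were closer), and Fcer1g and Hcst are adaptors that rose and fell with Lat2 and Tyrobp. Capitals mark matches to the core motifs of 2 blood transcription factors, PU.1 (GAGGAA or its reverse complement TTCCTC) and Runx (TGTGGT or ACCACA).
Clec5a (chr6:40585756-40586055, minus strand): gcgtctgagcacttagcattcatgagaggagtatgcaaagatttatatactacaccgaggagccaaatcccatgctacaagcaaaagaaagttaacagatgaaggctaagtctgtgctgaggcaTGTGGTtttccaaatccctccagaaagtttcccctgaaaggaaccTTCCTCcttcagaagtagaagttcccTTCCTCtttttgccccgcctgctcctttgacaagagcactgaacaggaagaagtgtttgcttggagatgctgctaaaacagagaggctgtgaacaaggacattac
Fcgr2b (chr1:170976022-170976321, minus strand): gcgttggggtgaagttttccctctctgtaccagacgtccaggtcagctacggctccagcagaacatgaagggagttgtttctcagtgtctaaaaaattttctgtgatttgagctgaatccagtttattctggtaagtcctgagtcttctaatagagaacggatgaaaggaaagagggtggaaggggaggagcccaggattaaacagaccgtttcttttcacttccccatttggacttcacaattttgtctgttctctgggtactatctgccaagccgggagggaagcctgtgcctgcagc
Fcer1g (chr1:171234300-171234599, minus strand): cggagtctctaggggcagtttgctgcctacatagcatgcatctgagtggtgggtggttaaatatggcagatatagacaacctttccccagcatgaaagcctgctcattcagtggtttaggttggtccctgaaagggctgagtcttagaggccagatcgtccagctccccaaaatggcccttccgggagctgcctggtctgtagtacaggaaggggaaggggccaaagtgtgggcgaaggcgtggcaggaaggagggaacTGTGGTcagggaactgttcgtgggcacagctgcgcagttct
Hcst (chr7:30419805-30420104, minus strand): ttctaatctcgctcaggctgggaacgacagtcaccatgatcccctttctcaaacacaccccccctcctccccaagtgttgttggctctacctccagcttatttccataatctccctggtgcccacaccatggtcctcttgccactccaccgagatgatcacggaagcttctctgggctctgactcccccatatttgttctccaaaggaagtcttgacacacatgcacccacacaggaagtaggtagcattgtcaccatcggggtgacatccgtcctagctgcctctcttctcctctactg
The Clec5a window held 2 PU.1 core matches, whose first bases lay 81 and 55 bases before the start, and 1 Runx core match 126 bases before it. In Fcer1g, 1 Runx core match began at base 9 from the start, and the windows of Fcgr2b and Hcst held neither motif. Among members not shown, the Clec12a window also held 2 PU.1 core matches and 1 Runx core match. Each Fcgr3 window and 1 Syk window held 1 PU.1 core match. Of 32851 promoter windows of the same length, 28.3% held the PU.1 core and 16.8% the Runx core, on either strand, and no match overlapped another in the 4 windows shown. A STAT motif (TTCNNNGAA) was found in none of the windows of the 8 genes and in 8.30% of all windows. These matches are a description of letters and no measure of binding.

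**Figure D1:**
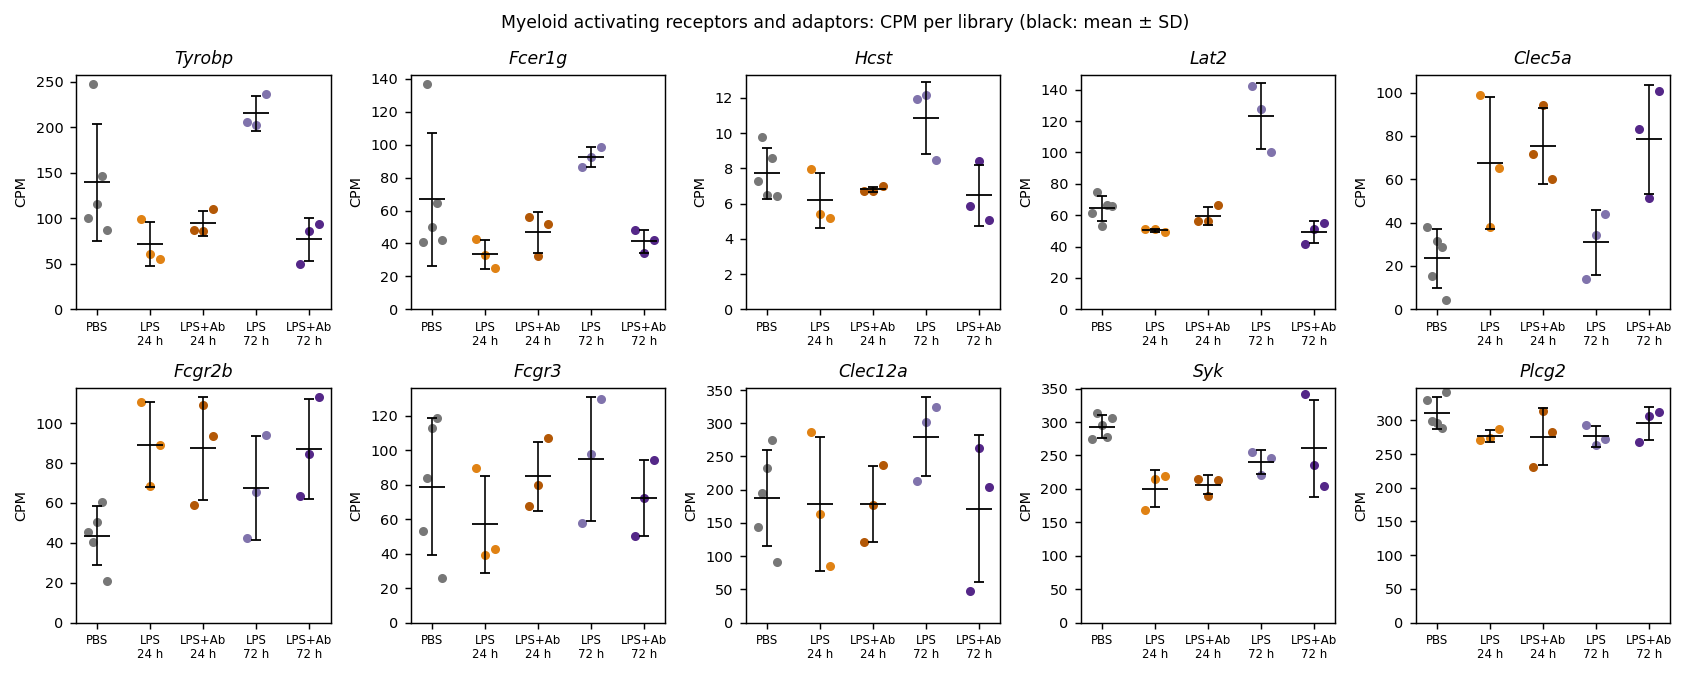
CPM of each of the 10 genes (vertical axes, linear from 0) in every library, by group (horizontal axes; LPS+Ab is LPS + antibody). Points are libraries and black bars are the mean ± SD. Tyrobp, Fcer1g, Hcst and Lat2 are highest at 72 h of LPS alone, whereas Clec5a is low with PBS and at 72 h of LPS alone.

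Tyrobp RNA was high at 72 h of LPS alone and low at 24 h of LPS and in both antibody groups. Tyrobp lies on chromosome 7 of GRCm38 (chr7:30413760-30417585, plus strand). In the 5 PBS libraries its level was 101, 248, 115, 146 and 87.4 CPM. With LPS it was 99.0, 60.6 and 55.4 CPM at 24 h and 206, 203 and 237 CPM at 72 h. In the LPS + antibody libraries it was 86.8, 86.3 and 110.5 CPM at 24 h and 49.5, 86.5 and 94.0 CPM at 72 h. The 3 LPS libraries at 72 h lay above every other library except PBS replicate 2. Between 24 h and 72 h of LPS, Tyrobp rose 3.01-fold (log2 change 1.59, SE 0.34, adjusted p = 0.00318). At 72 h it was lower with LPS + antibody than with LPS alone (log2 change -1.49, SE 0.34, adjusted p = 0.0108), from a mean of 215 ± 18.9 (SD, n = 3) to 76.7 ± 23.8 CPM (SD, n = 3). Both calls held whichever of the 6 libraries compared was left out, with adjusted p up to 0.0185 and 0.0481.

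Fcer1g, the gamma chain shared by activating Fc receptors, followed the same order. The gene is on chromosome 1 (chr1:171229572-171234365, minus strand). With PBS its level was 40.6, 137, 49.9, 64.6 and 42.2 CPM. With LPS it was 42.6, 33.1 and 24.8 CPM at 24 h and 86.5, 92.6 and 98.6 CPM at 72 h. With LPS + antibody the libraries had 55.9, 32.5 and 51.8 CPM at 24 h and 47.9, 33.9 and 41.9 CPM at 72 h. Again only PBS replicate 2 lay as high as the 72 h LPS libraries. The rise from 24 h to 72 h of LPS was 2.77-fold (log2 change 1.47, SE 0.38, adjusted p = 0.00934), and it passed the test whichever of the 6 libraries was left out (adjusted p up to 0.0469). At 72 h Fcer1g was lower with antibody by a log2 change of -1.17 (SE 0.38, adjusted p = 0.0496). That call sat at the threshold and was lost when any 1 of the 6 libraries was left out (adjusted p from 0.0890 to 0.135), although the groups did not overlap. Fits by edgeR with replicate numbers as blocks (adjusted p = 0.0745), without the filter on low counts (0.0584) or with DESeq2 size factors (0.0505) also ended the call.

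Hcst, the adaptor that recruits phosphatidylinositol 3-kinase, was expressed at a low level and changed less. It neighbours Tyrobp (chr7:30417712-30419854, minus strand), with 126 bases between the 2 genes on opposite strands. The PBS libraries had 7.29, 9.76, 6.48, 8.58 and 6.46 CPM. The LPS libraries had 7.97, 5.42 and 5.17 CPM at 24 h and 11.9, 12.2 and 8.48 CPM at 72 h, and the LPS + antibody libraries had 6.72, 6.72 and 6.99 CPM at 24 h and 5.89, 8.41 and 5.09 CPM at 72 h. The lowest 72 h LPS library was close to the highest 72 h antibody library, and the groups did not overlap. Between 24 h and 72 h of LPS Hcst rose by a log2 change of 0.81 (SE 0.24, adjusted p = 0.0197). At 72 h it was lower with antibody by a log2 change of -0.75 (SE 0.24, adjusted p = 0.0493). The rise was lost without LPS replicate 2 or 3 at 24 h or replicate 1 or 2 at 72 h (adjusted p from 0.0641 to 0.0878). The difference with antibody was lost without LPS replicate 1 or 2, or LPS + antibody replicate 1 or 3, at 72 h (adjusted p from 0.143 to 0.161). It was also lost by edgeR with replicate numbers as blocks (adjusted p = 0.0532), without the filter on low counts (0.0854) and with only the compared groups in the fit (0.150). With 70 to 144 counts a library, Hcst had the fewest counts of the set apart from 1 Clec5a library.

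Lat2, the membrane scaffold phosphorylated after Syk, was chosen for its pattern, which is described here without a test. The gene is on chromosome 5 (chr5:134600022-134615025, minus strand), and its end overlaps that of Rfc2 on the other strand. The level was 61.6, 75.0, 52.9, 66.4 and 66.0 CPM with PBS. It was 50.9, 51.0 and 49.1 CPM at 24 h of LPS and 142, 128 and 100.1 CPM at 72 h. With LPS + antibody it was 56.2, 56.3 and 66.3 CPM at 24 h and 41.5, 51.2 and 55.2 CPM at 72 h. All 3 LPS libraries at 72 h thus lay above the other 14 libraries, and no other member separated that group from all others. The fitted log2 change was 0.94 (SE 0.13) between 72 h of LPS and PBS, and -1.32 (SE 0.15) between LPS + antibody and LPS at 72 h. Outside the comparisons that chose it, Lat2 did not pass the test with antibody at 24 h (log2 change 0.24, SE 0.15, adjusted p = 1) nor between the 2 antibody groups (log2 change -0.27, SE 0.15, adjusted p = 0.918).

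Across the 8 partner genes, 3 rose between 24 h and 72 h of LPS and 0 fell, where 14.7% of the 14920 genes tested were called higher and 16.4% lower (31.1% in all). The 3 were the adaptors Tyrobp, Fcer1g and Hcst. Between LPS + antibody and LPS at 72 h the same 3 adaptors were lower and 0 of the 8 were higher, where 6.48% of all genes tested were called lower and 8.64% higher (15.1% in all). These 2 comparisons share the 72 h LPS libraries. The median log2 change of the 8 partners was 0.69 in the first, against 0.02 for all genes, and -0.55 in the second, against 0.01. Between the 72 h and 24 h antibody groups 0 of the 8 were called (0 of the 8 at an unadjusted p under 0.05), where edgeR called 0 of all genes (635 unadjusted, 4.26%) and DESeq2 called 1.

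**Figure D2:**
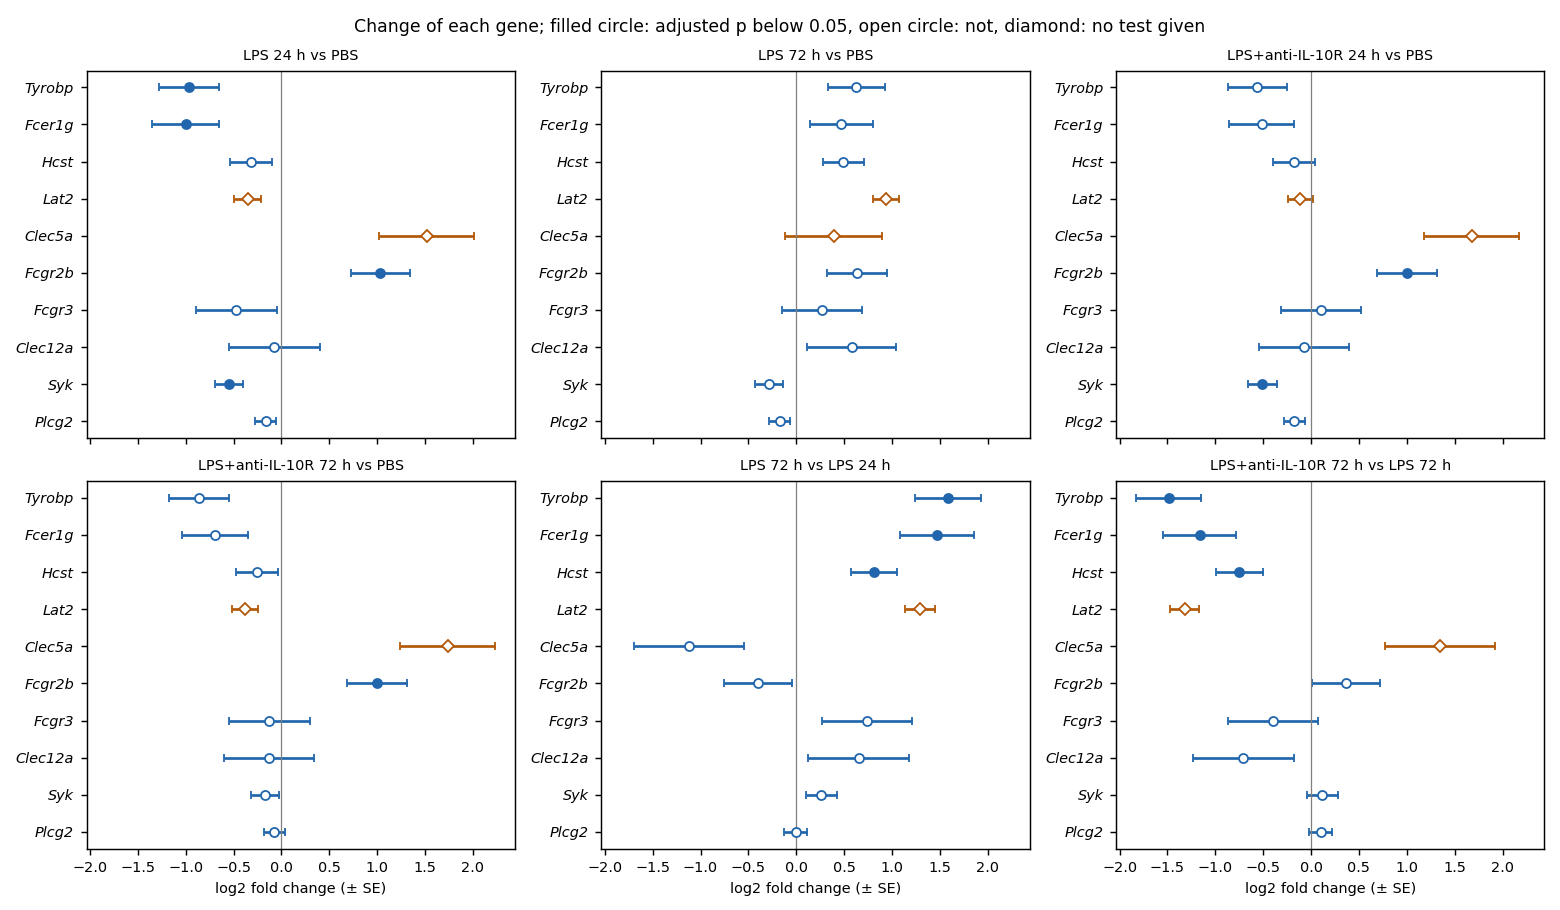
Fitted log2 change of each gene (horizontal axes, bars ± SE) in 6 comparisons. Filled circles passed an adjusted p of 0.05, open circles did not, and orange diamonds mark Clec5a and Lat2 where no test is given. The 3 adaptors Tyrobp, Fcer1g and Hcst are filled to the right at 72 h against 24 h of LPS and filled to the left for antibody at 72 h.

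Of the 3 partner adaptors, Tyrobp and Fcer1g were called lower than with PBS at 24 h of LPS and Hcst was not (log2 change -0.32, SE 0.22, adjusted p = 0.264). Tyrobp fell by 0.96 on the log2 scale (SE 0.31, adjusted p = 0.0244) and Fcer1g fell by 1.00 (SE 0.35, adjusted p = 0.0342), and the libraries of the groups overlapped for both. Both calls leaned on PBS replicate 2. Without it the changes were -0.65 for Tyrobp (adjusted p = 0.0539) and -0.56 for Fcer1g (adjusted p = 0.0670), and the Fcer1g mean with PBS was 49.4 CPM (n = 4, from 40.6 to 64.6 CPM) in place of 66.9 ± 40.3 CPM (SD, n = 5). Tyrobp also lost its call without LPS replicate 2 or 3 (adjusted p = 0.0841 and 0.10), and Fcer1g without LPS replicate 1, 2 or 3 (adjusted p = 0.0523, 0.0794 and 0.132). A fit with replicate numbers as blocks gave -1.16 for Fcer1g (adjusted p = 0.0515). Of the 21 monocyte and macrophage markers, 17 were lower at 24 h of LPS, their sum was 554 to 913 CPM in that group, and none of the 21 was at 0 throughout a group. Their part in these changes was not tested, and in bulk RNA fewer cells of a type and less RNA per cell cannot be told apart.

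The other comparisons of the adaptors with PBS passed no test by edgeR, and 1 of them passed by DESeq2 (Tyrobp with antibody at 72 h, log2 change -0.86, adjusted p = 0.0333). At 72 h of LPS the fitted log2 changes were 0.63 for Tyrobp, 0.47 for Fcer1g and 0.49 for Hcst (adjusted p = 0.440, 0.593 and 0.399). With LPS + antibody Tyrobp was at -0.56 at 24 h and -0.86 at 72 h (adjusted p = 0.190 and 0.0722), and Fcer1g at -0.52 and -0.70 (adjusted p = 0.281 and 0.178). Hcst lay between -0.32 and -0.18 in the 3 groups other than 72 h of LPS.

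Clec5a, a lectin-like receptor that signals through Tyrobp, had its lowest levels with PBS and at 72 h of LPS alone. Its position is chromosome 6 (chr6:40574894-40585821, minus strand). Its level was 37.8, 15.3, 31.3, 28.6 and 4.28 CPM with PBS. It was 98.9, 38.1 and 65.3 CPM at 24 h of LPS and 71.5, 94.4 and 60.1 CPM at 24 h of LPS + antibody. At 72 h it was 14.1, 34.5 and 43.8 CPM with LPS and 83.1, 51.3 and 101 CPM with LPS + antibody. Every library of the 24 h LPS group and of both antibody groups lay above every PBS library, though LPS replicate 2 at 24 h only just did, and the 72 h LPS libraries lay within or just above the PBS range. Each group spread widely, with PBS at 23.5 ± 13.5 (SD, n = 5) and 72 h of LPS at 30.8 ± 15.2 CPM (SD, n = 3). The fitted log2 changes from PBS were 1.52 (SE 0.50) at 24 h of LPS, 1.68 (SE 0.50) with antibody at 24 h and 1.74 (SE 0.50) with antibody at 72 h.

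The values of Clec5a thus ran opposite to those of its adaptor Tyrobp at 72 h. Clec5a averaged 78.3 ± 25.0 CPM (SD, n = 3) with LPS + antibody, a fitted log2 change of 1.34 (SE 0.58) from LPS alone, where Tyrobp was lower. Between 24 h and 72 h of LPS, a comparison that did not choose it, Clec5a was lower by a log2 change of -1.13 (SE 0.57) and did not pass the test (adjusted p = 0.148). The groups overlapped there, since LPS replicate 2 at 24 h (38.1 CPM) lay below replicate 3 at 72 h (43.8 CPM). The summed level of 4 primary granule genes (Mpo, Elane, Prtn3 and Ctsg) overlapped between all groups. It ran from 2499 to 14942 CPM with PBS and from 3761 to 17287 CPM in the treated groups. In each of the 9 comparisons 0 of the 4 were called, where between 0% and 37.6% of all genes tested were called. The part of these genes in the level of Clec5a was not tested.

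Fcgr2b, the inhibitory receptor for immunoglobulin G, was higher than with PBS in the 24 h LPS group and in both antibody groups. Its position is chromosome 1 (chr1:170958617-170976547, minus strand), with an annotated antisense transcript, Gm38204, overlapping it. The PBS libraries had 45.5, 40.5, 50.4, 60.6 and 20.6 CPM. The 24 h libraries had 111, 68.3 and 88.9 CPM with LPS and 59.2, 109 and 93.5 CPM with LPS + antibody. The 72 h libraries had 42.6, 65.6 and 94.3 CPM with LPS and 63.6, 84.4 and 113 CPM with LPS + antibody. No library of the 24 h LPS or 72 h antibody groups fell within the PBS range, and 1 of the 24 h antibody group did. Fcgr2b rose by a log2 change of 1.03 at 24 h of LPS (SE 0.31, adjusted p = 0.0174), 1.00 with antibody at 24 h (SE 0.31, adjusted p = 0.0314) and 1.00 with antibody at 72 h (SE 0.31, adjusted p = 0.0472). At 72 h of LPS alone the change was 0.63 (SE 0.32, adjusted p = 0.461).

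These calls depended on single libraries to different degrees. The call at 24 h of LPS was lost only without LPS replicate 1 (log2 change 0.86, adjusted p = 0.0974). The call with antibody at 24 h was lost without PBS replicate 2 or 5 or without LPS + antibody replicate 2 or 3 (adjusted p from 0.0513 to 0.146). The call with antibody at 72 h was kept only without PBS replicate 4, and otherwise had adjusted p from 0.0534 to 0.182. Unlike the adaptors, Fcgr2b did not pass the test between antibody and LPS at 72 h (log2 change 0.37, interval of ±2 SE from -0.35 to 1.08) or between 72 h and 24 h of LPS (log2 change -0.40, interval from -1.12 to 0.31).

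Fcgr3, the activating immunoglobulin G receptor that needs the Fcer1g chain, varied within groups and passed no test. It lies near Fcgr2b (chr1:171051174-171064935, minus strand), and because both receptors are similar in sequence, reads may have been split between them. Its level was 53.3, 83.7, 113, 119 and 25.9 CPM with PBS. At 24 h it was 89.5, 39.3 and 42.4 CPM with LPS and 67.6, 79.97 and 107 CPM with LPS + antibody. At 72 h it was 57.6, 97.5 and 129.5 CPM with LPS and 50.5, 72.0 and 94.2 CPM with LPS + antibody. All groups overlapped one another. The largest fitted log2 change between 2 groups was 0.74 between 72 h and 24 h of LPS (SE 0.47, adjusted p = 0.248).

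Clec12a, an inhibitory lectin receptor of myeloid cells, also passed no test. It lies on chromosome 6 (chr6:129342691-129365303, plus strand). Its level was 144, 195, 233, 275 and 91.2 CPM with PBS. With LPS it was 286, 164 and 84.9 CPM at 24 h and 213, 302 and 324 CPM at 72 h. With LPS + antibody it was 122, 176 and 237 CPM at 24 h and 48.2, 263 and 204 CPM at 72 h. The antibody group at 72 h spread most, because its replicate 1 had the lowest level of all 17 libraries. The fitted log2 change with antibody at 72 h was -0.71 (SE 0.53, adjusted p = 0.372), and between 72 h and 24 h of LPS it was 0.65 (SE 0.53, adjusted p = 0.367).

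Syk, the kinase that docks on Tyrobp and Fcer1g, was lower than with PBS at 24 h and passed no test at 72 h. It lies on chromosome 13 (chr13:52583173-52648792, plus strand). The PBS libraries had 275, 313, 295, 278 and 305 CPM. The 24 h libraries had 168, 214 and 219 CPM with LPS and 215, 189 and 214 CPM with LPS + antibody. The 72 h libraries had 255, 220.1 and 246 CPM with LPS and 343, 235 and 205 CPM with LPS + antibody. All 6 libraries at 24 h and all 3 LPS libraries at 72 h lay below every PBS library, whereas the 72 h antibody libraries ranged on both sides of PBS. Syk fell by 0.55 on the log2 scale at 24 h of LPS (SE 0.15, adjusted p = 0.00924) and by 0.51 with antibody at 24 h (SE 0.15, adjusted p = 0.0234). The first call was lost without LPS replicate 1 (adjusted p = 0.0689), the library that stood apart in composition. The second was lost without PBS replicate 5 or LPS + antibody replicate 2 or 3 (adjusted p = 0.0558, 0.105 and 0.0539). At 72 h the log2 changes from PBS were -0.29 with LPS and -0.17 with LPS + antibody (adjusted p = 0.469 and 0.449).

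Plcg2, the phospholipase at the end of the chain, was the steadiest of the 10 genes. It lies on chromosome 8 (chr8:117498291-117635142, plus strand). Group means were 311 ± 23.5 CPM with PBS (SD, n = 5), 277 ± 8.98 and 276 ± 15.4 CPM at 24 h and 72 h of LPS (SD, n = 3 each), and 276 ± 42.5 and 296 ± 24.7 CPM with LPS + antibody (SD, n = 3 each). Single libraries ranged from 230.4 to 343 CPM. Its log2 changes from PBS lay between -0.18 and -0.07, and the adjusted p was above 0.24 in all 9 comparisons.

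Set against PBS, 4 of the 8 partners were called at 24 h of LPS, where 37.6% of all genes tested were called. They were Fcgr2b, which rose, and Tyrobp, Fcer1g and Syk, which fell. With antibody 2 were called at 24 h (Fcgr2b higher and Syk lower, where 24.2% of all genes were called) and 1 at 72 h (Fcgr2b, higher, where 13.2% were called and 6.81% were higher). At 72 h of LPS alone 0 of the 8 were called by edgeR (1 at an unadjusted p under 0.05) and 0 by DESeq2, where 0.0201% of all genes were called. Nothing is read from these shares, because the set was assembled with the PBS comparisons in view.

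At 24 h the antibody made no difference that passed the test for any of the 8 partners. The count by edgeR was 0 of 8, with 0 at an unadjusted p under 0.05, and DESeq2 also called 0 of the 8. Among all 14920 genes edgeR called 0 (273, or 1.83%, at an unadjusted p under 0.05), and DESeq2 called 1. The fitted log2 differences of the adaptors were 0.40 for Tyrobp (interval of ±2 SE from -0.27 to 1.08), 0.48 for Fcer1g (from -0.27 to 1.24) and 0.14 for Hcst (from -0.35 to 0.63). These intervals do not show that the antibody had no effect at 24 h.

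Whether the antibody acted differently at 72 h than at 24 h was itself tested. Tyrobp passed, with an antibody effect that was lower at 72 h than at 24 h by a log2 change of -1.89 (SE 0.48, adjusted p = 0.0322), and it was 1 of the 8 partners, where 2.32% of all genes were called lower and 4.03% higher (6.35% in all). That call was lost in 8 of the 12 omissions of a single library (adjusted p from 0.0511 to 0.0841), and it was kept without LPS replicate 1 or LPS + antibody replicate 2 at 24 h and without LPS + antibody replicate 2 or 3 at 72 h. With replicate numbers as blocks the Tyrobp call was lost too (adjusted p = 0.0620). Fcer1g had a difference of -1.65 (SE 0.54, adjusted p = 0.0755, and 0.0258 by DESeq2) and Hcst one of -0.89 (SE 0.34, adjusted p = 0.126). For the 2 genes chosen for their values, the difference was -1.57 for Lat2 (SE 0.21) and 1.18 for Clec5a (SE 0.80), given without a test.

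Per kilobase of merged exon, the mean PBS levels ran from 209 CPM per kb for Tyrobp through 76.5 for Fcer1g, 72.4 for Plcg2, 45.5 for Fcgr3, 33.9 for Clec12a, 31.3 for Syk, 24.6 for Lat2, 10.7 for Hcst and 7.52 for Fcgr2b to 6.11 for Clec5a. Tyrobp was above the other 9 in this order, though its lowest PBS library (131 CPM per kb) lay below the highest library of Fcer1g (157). That Fcer1g library was PBS replicate 2, and both genes overlapped only through it. Without it the Fcer1g mean fell from 66.9 to 49.4 CPM, so the place of Fcer1g above Plcg2 rests on that library. Neighbours in this order overlapped over the PBS libraries, except that every Syk value lay above every Lat2 value and every Lat2 value above every Hcst value. The adaptors differed most among themselves, since Hcst, which shares its neighbourhood with Tyrobp, was near the lower end. At 72 h of LPS the per-length mean of Lat2 was 47.0 CPM per kb and that of Tyrobp 323.

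**Figure D3:**
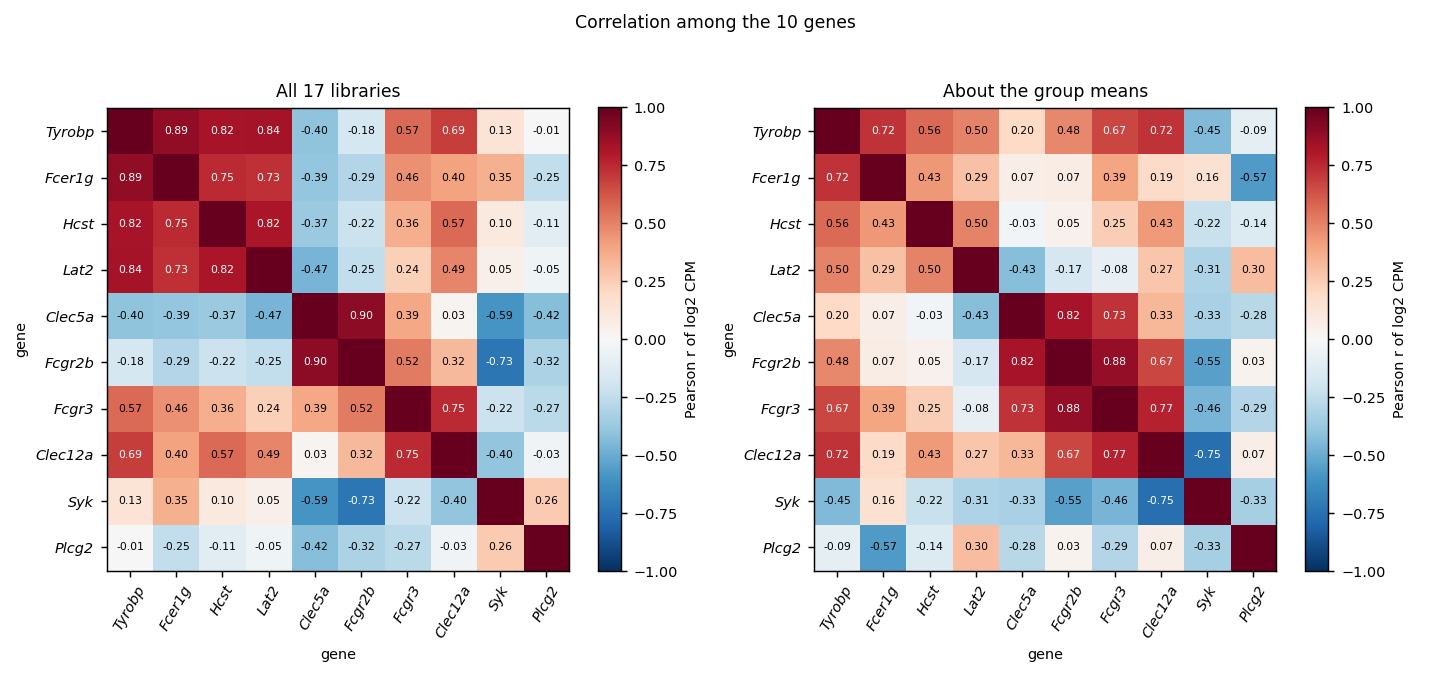
Pearson correlation of log2 CPM between each pair of the 10 genes over the 17 libraries (left) and after the mean of each group was subtracted (right). Rows and columns are genes and the colour scale runs from -1 (blue) to 1 (red). The 4 adaptors form a red block at the upper left of the left panel, Clec5a is red with Fcgr2b in both panels (0.90 and 0.82), and Clec12a is red with Fcgr3 (0.75 and 0.77) and with Tyrobp (0.69 and 0.72).

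How the 10 genes went together across the 17 libraries is described here by Pearson's r of log2 CPM, without a test. Points share their libraries and groups, so r about the group means is given as well. Tyrobp went with Fcer1g (r = 0.89, 0.72 about the group means), with Lat2 (0.84 and 0.50) and with Hcst (0.82 and 0.56). Clec5a went with Fcgr2b (r = 0.90, 0.82 about the group means). Fcgr3 went with Fcgr2b less closely over all libraries (0.52) than about the group means (0.88), and with Clec12a in both (0.75 and 0.77). Clec12a also went with Tyrobp (0.69 and 0.72) and, over all libraries, with Hcst (0.57), but not with Clec5a (0.03 and 0.33). Plcg2 went with none of the others over all libraries (r from -0.42 to 0.26). Clec5a and its adaptor Tyrobp had r = -0.40 over all libraries and 0.20 about the group means. Syk was opposite to Fcgr2b (r = -0.73).

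Of 7460 genes in the upper part of the expression range, the 5 whose log2 CPM was most like that of Clec5a were Hp, Gda, Dnm2, Gsr and Dstn, with r from 0.92 to 0.96 over 17 libraries. Hp encodes haptoglobin and had r = 0.96, or 0.94 about the group means. Its mean level was 131 CPM with PBS, 277 CPM and 316 CPM at 24 h without and with antibody, and 149 CPM and 284 CPM at 72 h. The 5 most like Lat2 were Fbxw4, Itgb7, Pold4, Cst3 and Grcc10, with r from 0.88 to 0.92 and lower values, from 0.40 to 0.65, about the group means. Cst3, which encodes cystatin C, had a mean of 378 CPM with PBS, 589 CPM at 72 h of LPS and 235 CPM with antibody at 72 h.

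**Figure D4:**
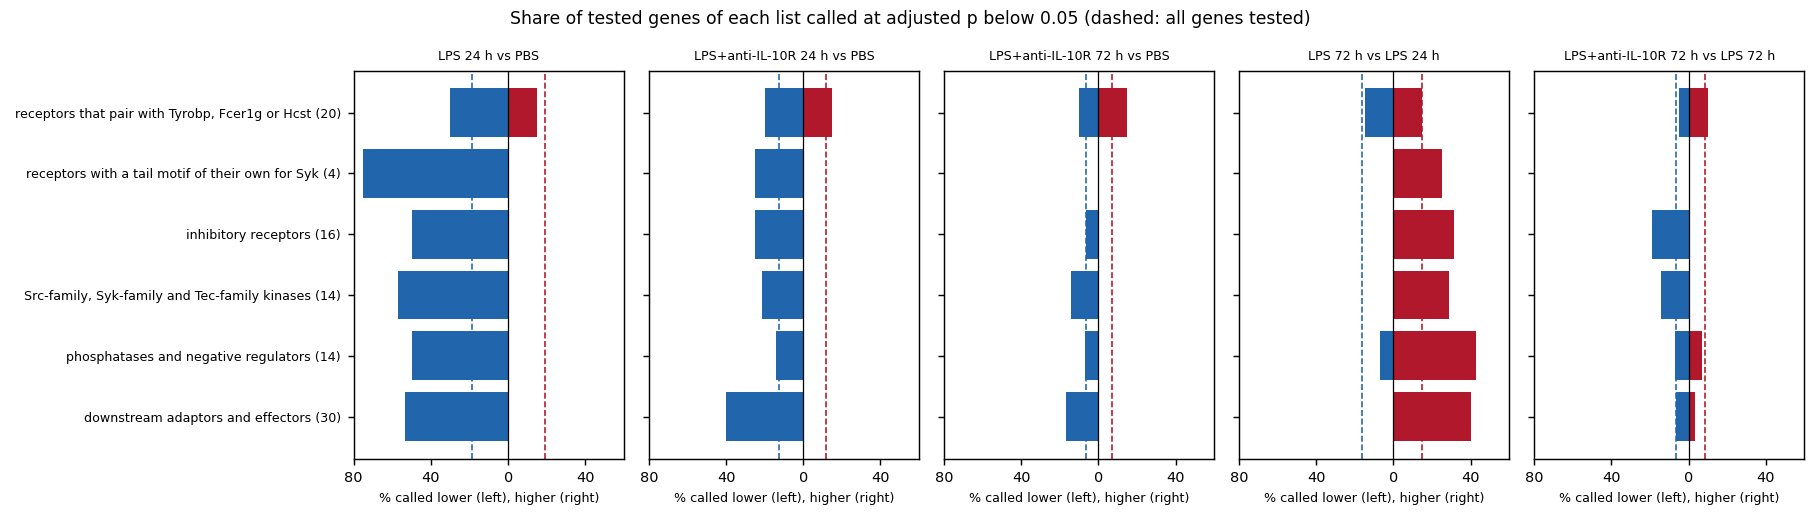
Share of the tested genes of each of 6 pathway lists (rows; number tested in parentheses) called lower (blue, to the left) or higher (red, to the right) in 5 comparisons. Dashed lines mark the share of all genes tested. At 24 h of LPS against PBS most bars extend to the left, and between 72 h and 24 h of LPS most extend to the right.

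The rest of the pathway was described with 6 lists of 104 genes, of which 98 were tested. Clec7a, Pira6 and Lilrb4b were not analysed here, and Sirpb1a, Sirpb1b and Oscar had counts too low to test. Between 24 h and 72 h of LPS 31 of the 98 rose and 4 fell, where 14.7% of all genes tested were called higher and 16.4% lower. Those that rose were 12 of 30 downstream adaptors and effectors, 6 of 14 phosphatases and negative regulators, 5 of 16 inhibitory receptors, 4 of 14 kinases, 3 of 20 receptors that pair with the adaptors and 1 of 4 receptors with a tail motif of their own. The median log2 change was 0.50 for the downstream list, 0.46 for inhibitory receptors and -0.33 for the pairing receptors, against 0.02 for all genes. The median of the pairing receptors is uncertain, because that list includes genes with few counts, such as Clec4n (0 to 3 counts in these libraries). Leaving out single libraries gave 21 to 32 genes higher and 0 to 3 lower. At 72 h of LPS against PBS 0 of the 98 were called higher and 0 lower, where 0.0201% of all genes tested were called. The DESeq2 Wald test called 5 of them lower there, and a fit of the compared groups only called 2 higher.

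Among downstream genes the adaptors Blnk (log2 change 2.91, adjusted p = 0.00135) and Grap2 (2.34, adjusted p = 0.000413) rose most between 24 h and 72 h of LPS. The inhibitory sialic acid receptor Cd33 rose by a log2 change of 2.48 (adjusted p = 0.000913), from 5.83 ± 3.12 to 32.9 ± 4.48 CPM (SD, n = 3 each). The activating receptor Cd300lb, a partner of Tyrobp, rose by 2.89 (adjusted p = 0.0105), from 4.91, 11.2 and 1.53 CPM to 35.8, 37.4 and 57.6 CPM. These 4 calls held whichever of the 6 libraries was left out. Further genes rose with calls that 1 library or more could end: Siglech, another partner of Tyrobp (2.67), the dendritic cell receptor Clec9a (2.22), the inhibitory receptor Cd22 (2.18), the kinases Zap70 (1.77) and Lck (1.52), and the negative regulators Dok2 (1.32) and Dok3 (1.29). Adjusted p rose to 0.0591 for Lck and 0.0688 for Dok2 without LPS replicate 1 at 72 h. It rose to 0.0666 and 0.0940 for Zap70 without LPS replicate 3 at 24 h and replicate 1 at 72 h. For Siglech, Clec9a and Cd22 it was 0.0759 to 0.135 without LPS replicate 1 or 3 at 24 h or, in turn, replicate 1, 3 and 3 at 72 h. Dok3 kept its call only without LPS replicate 1 at 24 h, and otherwise had adjusted p from 0.0517 to 0.124. Siglech is also 1 of the 5 plasmacytoid dendritic cell markers, of which 4 were higher at 72 h. Of 10 T and NK cell markers 3 were higher and of 8 B-lymphoid markers 0, and their part in these changes was not tested.

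Of the genes that fell between 24 h and 72 h of LPS, Trem1, an amplifier of inflammation that pairs with Tyrobp, changed by -1.23 (adjusted p = 0.0287). Fcer1a, the mast cell and basophil chain that pairs with Fcer1g, changed by -3.91 (adjusted p = 0.0233). Trem1 lost its call without LPS replicate 1 or 3 at 24 h or replicate 1 or 2 at 72 h (adjusted p from 0.0620 to 0.115). Fcer1a lost it without LPS replicate 1 at 24 h or any of the 3 at 72 h (adjusted p from 0.0548 to 0.0819). The 8 mast cell and basophil markers, Fcer1a among them, summed to 144 to 472 CPM at 24 h of LPS and 47.1 to 82.0 CPM at 72 h, and 4 of the 6 tested were called lower.

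Between LPS + antibody and LPS at 72 h 4 of the 98 were higher and 9 lower, where 8.64% of all genes tested were called higher and 6.48% lower. Of the 20 tested receptors that pair with the adaptors 2 were higher and 1 was lower, which is near the shares of all genes. Trem1 (log2 change 1.26, SE 0.40, adjusted p = 0.0444) and Clec4e (0.75, SE 0.20, adjusted p = 0.0218) were higher. Cd300lb was lower (-2.56, SE 0.76, adjusted p = 0.0341). The median log2 change of the 20 pairing receptors was 0.80, against 0.01 for all genes. That median is uncertain, because the list includes genes with few counts. Clec4n had 0, 1 and 0 counts at 72 h of LPS and 4, 1 and 0 with antibody. Fcer1a was high in only 1 antibody library at 72 h (12.2, 1.77 and 0.707 CPM). Clec4e encodes Mincle, a lectin that pairs with Fcer1g. Trem1 had 9.05 ± 2.82 CPM with LPS and 21.8 ± 1.87 CPM with LPS + antibody (SD, n = 3 each), and Clec4e 21.5 ± 5.10 and 36.3 ± 2.81 CPM (SD, n = 3 each). Cd300lb had 35.8, 37.4 and 57.6 CPM against 1.09, 8.87 and 12.2 CPM. The Trem1 call was kept only without LPS replicate 3, and otherwise had adjusted p from 0.0536 to 0.173. Cd300lb kept its call only without LPS + antibody replicate 3 (otherwise 0.0643 to 0.0874), and Clec4e lost it without LPS replicate 1 or 3 (adjusted p = 0.103 and 0.0539).

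The inhibitory receptors Cd72 (log2 change -1.28, adjusted p = 0.00470) and Pecam1 (-0.82, adjusted p = 0.00584) and the exchange factor Rasgrp4 (-1.31, adjusted p = 0.00151) were lower with antibody at 72 h, and the 3 calls held whichever of the 6 libraries was left out. With only the compared groups in the fit, Cd72 was at an adjusted p of 0.0599, and Pecam1 did not reach a 2-fold minimum. Rasgrp4 went from 29.6 ± 4.09 to 11.9 ± 1.25 CPM (SD, n = 3 each). The adaptor Grap2 (-1.49, adjusted p = 0.0117) and the kinase Zap70 (-1.85, adjusted p = 0.0228) were also lower. The phosphatase Ptpn11 (0.62, adjusted p = 0.0183) and the adaptor Pik3ap1 (0.79, adjusted p = 0.0203) were higher. Grap2 lost its call without LPS or LPS + antibody replicate 1 (adjusted p = 0.0538 and 0.0516). Zap70 lost it without LPS replicate 1 or LPS + antibody replicate 1 or 3 (0.0621 to 0.141). Ptpn11 and Pik3ap1 lost theirs without LPS replicate 1 or 2 or LPS + antibody replicate 1 (0.0538 to 0.0843). With only the compared groups in the fit, Clec4e, Cd300lb, Zap70, Ptpn11 and Pik3ap1 also lost their calls (adjusted p from 0.0530 to 0.0806). Leaving out single libraries gave 0 to 5 pathway genes higher and 3 to 10 lower, with 0 higher and 3 lower without LPS replicate 1 and 1 higher and 3 lower without LPS + antibody replicate 1.

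At 24 h of LPS 48 of the 98 pathway genes were lower than with PBS and 3 higher, where 18.5% of all genes tested were called lower and 19.1% higher. By list, 16 of 30 downstream genes, 8 of 16 inhibitory receptors, 8 of 14 kinases, 7 of 14 phosphatases and negative regulators, 6 of 20 pairing receptors and 3 of 4 receptors with their own motif fell. In the same comparison 17 of 21 monocyte and macrophage markers were lower, as were 3 of 10 T and NK cell and 2 of 8 B-lymphoid markers. Of 5 plasmacytoid dendritic cell markers 4 were lower and 1 was higher. Of the 8 stem and progenitor markers 6 were lower. Of 9 erythroid markers 1 was lower, and of 6 mast cell and basophil markers tested 1 was higher. Of 4 primary granule and 10 mature neutrophil markers tested 0 were called. The part of all these markers in the fall of the lists was not tested. The 3 genes that rose were the pairing receptors Trem1 (log2 change 1.79, adjusted p = 0.00146), Clec4d (1.30, adjusted p = 0.00360) and Clec4e (0.79, adjusted p = 0.00359), all 3 of which are partners of Tyrobp or Fcer1g, as Clec5a is. The same 3 rose in both antibody groups, Trem1 by 1.67 at 24 h and 1.83 at 72 h (adjusted p = 0.00616 and 0.00833), Clec4d by 1.00 and 1.22 (adjusted p = 0.0252 and 0.0184) and Clec4e by 1.01 and 1.26 (adjusted p = 0.00403 and 0.00311). At 72 h of LPS alone their changes were 0.56, 0.38 and 0.51 and passed no test (adjusted p = 0.554, 0.642 and 0.321). These comparisons share the PBS libraries, and Clec4d and Clec4e are named beside Trem1 because they complete the 3.

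Genes that fell at 24 h of LPS included Blnk (log2 change -3.02, adjusted p = 0.000878), the Ras activator Rasgrp3 (-2.80, adjusted p = 0.00288), Cd33 (-2.53, adjusted p = 0.000668), Siglech (-3.96, adjusted p = 0.00203) and Dok2 (-1.63, adjusted p = 0.00173). These 5 calls held whichever of the 8 libraries was left out. Among the other genes that the naming rule gave as lower here, Clec1b and Pilra held too. Cd79a lost its call in 8 of 8 omissions, Inppl1 in 4, Src in 2 and Blk in 1. Clec4n, near the floor of counts, lost it in 3 of the 5 omissions in which it was tested. With replicate numbers as blocks Inppl1 and Clec4n also lost their calls (adjusted p = 0.0911 and 0.0535). With antibody 26 of the 98 were lower at 24 h and 11 at 72 h, where 12.5% and 6.43% of all genes were. Without PBS replicate 2 the counts of lower genes were 33 at 24 h of LPS, 18 with antibody at 24 h and 4 with antibody at 72 h. At 24 h of LPS the count was 26 without LPS replicate 1 and 31 without replicate 3. With antibody it was 4 at 24 h without LPS + antibody replicate 2. With antibody at 72 h it was 1 without LPS + antibody replicate 1 or 3, 5 without PBS replicate 5 and 7 without PBS replicate 3 or 4. Over all omissions of a single library the counts ran from 26 to 49, from 4 to 27 and from 1 to 11.

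**Figure D5:**
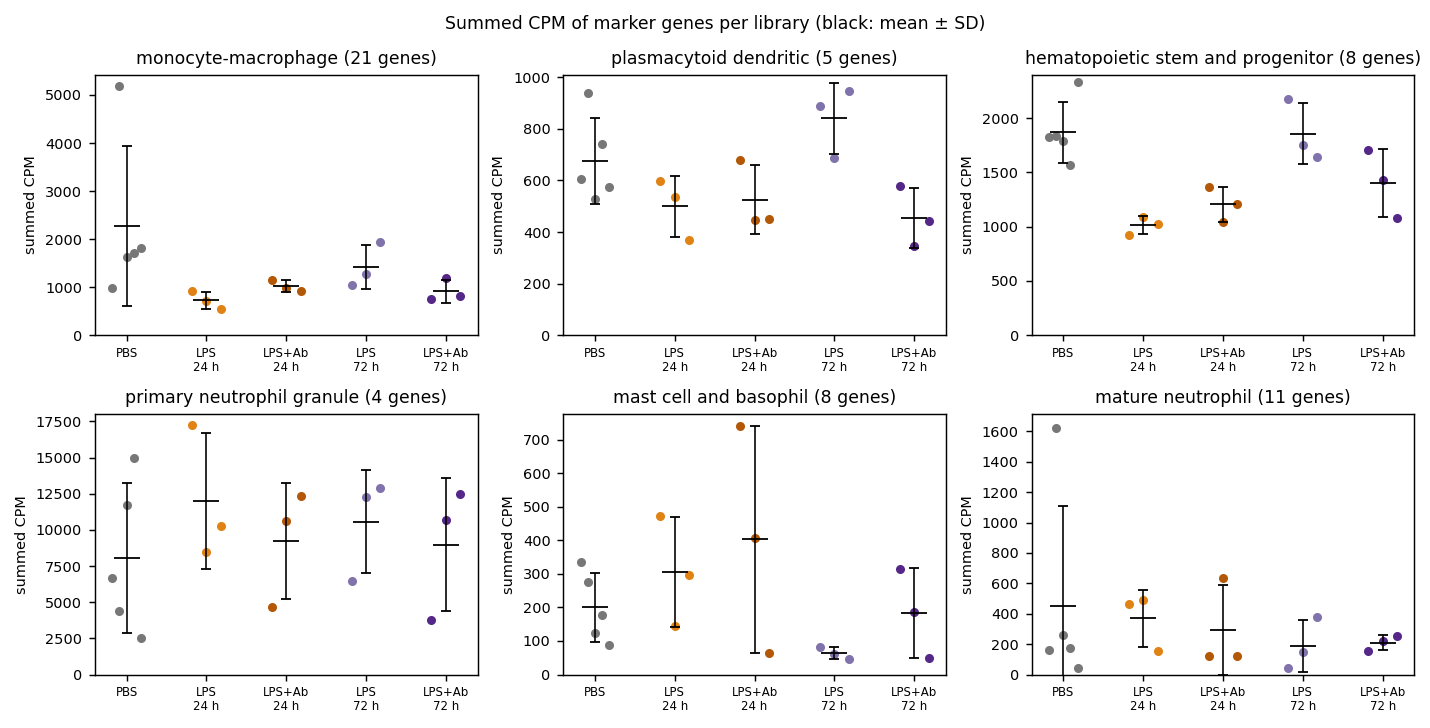
Summed CPM (vertical axes, linear from 0) of marker genes of 6 cell types in every library, by group (horizontal axes). Points are libraries and black bars are the mean ± SD. Plasmacytoid dendritic markers are higher at 72 h of LPS (686 to 949 CPM) than at 72 h of LPS + antibody (347 to 577 CPM), and PBS replicate 2 is high in monocyte and neutrophil markers.

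Markers of other cell types were set beside the adaptors in the same comparisons, where 14.7% of all genes tested were called higher between 24 h and 72 h of LPS and 6.48% lower with antibody at 72 h. The 5 plasmacytoid dendritic cell markers summed to 686 to 949 CPM at 72 h of LPS and 347 to 577 CPM with antibody at 72 h, without overlap, and 2 of the 5 were called lower with antibody. Between 24 h and 72 h of LPS 4 of these 5 were called higher, as were 6 of 8 stem and progenitor markers and 4 of 21 monocyte and macrophage markers. The monocyte and macrophage sum was 1051 to 1937 CPM at 72 h of LPS and 747 to 1189 CPM with antibody, which overlapped, with 2 of 21 called lower. None of these dendritic or monocyte markers was at 0 throughout a group. None of the 10 genes is in a marker list, but 5 of the pathway genes are (Cd79a, Cd79b, Fcer1a, Ncr1 and Siglech). The part of these markers in the changes of the adaptors was not tested.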

How the data were processed

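RNA was sequenced from 17 libraries of sorted HSPC. The authors deposited 1 table of raw counts, whole numbers of reads per gene symbol, for 35321 symbols. Per the submitters' processing notes, HISAT2 2.2.0, Subread featureCounts 2.1.1, R 4.3.2, DESeq2 and the GRCm38 build were used, with no role or order given. The annotation, the strand setting and the treatment of reads that match several genes are not given in the sources used here. Values of Lat2 and Fcgr2b, which overlap genes on the other strand, and of Fcgr2b and Fcgr3, which resemble each other, are uncertain for that reason. There were 0 columns that no label explained, and 13321 symbols had no count in any library.

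Groups and replicate numbers come from the sample titles. Counts were fitted with edgeR 4.0.16 (quasi-likelihood test) in R 4.3.3, with filterByExpr (minimum count 10, minimum total 15), which kept 14920 genes, TMM scaling and 1 mean per group over all 17 libraries. Tests were two-sided, with Benjamini-Hochberg adjustment over all genes tested in each of 9 comparisons, and genes with an adjusted p below 0.05 were called. The SE of a log2 change was taken from its size and its F statistic. CPM are counts scaled to the TMM-adjusted library total, and correlations use log2 CPM with a prior count of 2. The fit was tested on simulated data for 72 h of LPS against PBS. It recovered 46 of 100 log2 changes of size 1 and 85 of 100 of size 2, with 7 false calls. Many true changes of 2-fold can therefore pass no test. Precision is limited by 3 to 5 libraries a group and, for the lowest values (61 counts for Clec5a in 1 library), by counting error.

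The members, gene lists and tests were chosen with earlier results of these data known. All 10 members are named. Pathway genes were named by a rule: up to 2 called genes with the greatest increase and 2 with the greatest decrease per list and comparison, among those whose libraries did not overlap, of which those in the comparisons with PBS are given in part. Gene positions and lengths are from GENCODE vM21, promoters from RefSeq. Alternatives were DESeq2 1.42.0 size factors, upper-quartile factors, the DESeq2 Wald test, no filter, a fit of the compared groups only, a replicate block, a 2-fold minimum and leaving out each library. Same-numbered libraries deviated together in all 3 pairs between 24 h of LPS and PBS (correlations of 0.191, 0.188 and 0.158), so the blocked value is given there where it changed the call of a gene named. In the other comparisons the blocked value is given for members whose call it ended.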

Additional observations from a re-analysis of the deposited data

Results flagged for a closer look

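PBS replicate 2 had 137 CPM of Fcer1g, far above the other 4 PBS libraries (40.6 to 64.6 CPM). Its gap to the nearest library was 0.751 of the range of the group, above the critical value of 0.71 for 5 libraries. Only the PBS group was tested in this way, once for each of the 10 genes, because groups of 3 libraries are too small. Of these 10 tests, which share the same 5 libraries, 1 stood out. By chance alone about 1 test in 20 would. The same library had 5193 CPM of monocyte and macrophage markers, whose part in its Fcer1g level was not tested.

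The effect of the antibody on Tyrobp differed between the times by a log2 change of -1.89 (72 h minus 24 h, SE 0.48, adjusted p = 0.0322 with edgeR). All 3 libraries with antibody lay below all 3 with LPS at 72 h, whereas the groups overlapped at 24 h. Over the 12 omissions of a single library the value ran from -2.23 to -1.63, and the call was lost in 8 of them (adjusted p up to 0.0841 with edgeR). With replicate numbers as blocks it was lost too (adjusted p = 0.0620).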

How the results depend on the processing

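The counts given first are of called partners (of 8). At 24 h of LPS against PBS the count of 4 became 1 with the 2-fold minimum, 3 with the replicate block and 1 to 4 when single libraries were left out. With antibody at 24 h against PBS the count of 2 became 1 with the replicate block and 1 with the 2-fold minimum, and ran from 0 to 2 when libraries were left out. With antibody at 72 h against PBS the count of 1 became 0 with upper-quartile factors, the compared groups only, the replicate block or the 2-fold minimum, 2 with the DESeq2 Wald test, and 0 to 1 when libraries were left out. For antibody against LPS at 72 h the count of 3 became 1 without the filter, 1 with the replicate block and 1 to 2 when libraries were left out. For the difference between the antibody effects the count of 1 became 0 with the replicate block, 2 with the compared groups only or the DESeq2 Wald test, and 0 to 2 when libraries were left out. Between 72 h and 24 h of LPS the count of 3 ran from 2 to 3. The counts of 0 at 72 h of LPS against PBS, with antibody at 24 h against LPS and between the antibody groups stayed at 0 under every setting. Of the calls of single members against PBS, the replicate block also ended that of Syk with antibody at 24 h (adjusted p = 0.0796) and that of Fcgr2b with antibody at 72 h (adjusted p = 0.0754). Counts over all genes moved more: at 72 h of LPS against PBS 3 genes became 171 with the DESeq2 Wald test, 99 with the compared groups only and 0 with the replicate block. With antibody against PBS 3605 became 1721 at 24 h and 1975 became 374 at 72 h with the block, 2256 became 1123 for antibody at 72 h with the compared groups only, and 947 became 1702 with the Wald test, 617 without the filter, 333 with the block and 286 with the compared groups only for the difference of effects. The 2-fold minimum left 2043 of 5616, 1 of 3, 1234 of 3605, 655 of 1975, 711 of 2256, 1984 of 4646 and 552 of 947. Of the 98 pathway genes, the 4 higher and 9 lower with antibody at 72 h became 2 and 4 with the compared groups only and 8 and 14 with the Wald test, and the 4 higher became 1 with the 2-fold minimum. Against PBS the 11 lower with antibody at 72 h became 2 with the block, 18 with the compared groups only and 19 with the Wald test. Upper-quartile factors shifted the median log2 change of all genes by -0.13 at 24 h of LPS, -0.11 with antibody at 24 h and 0.11 between 72 h and 24 h of LPS, and for the difference of effects by -0.10. The share of calls that were higher then went from 50.7% to 36.8%, from 48.3% to 32.5%, from 47.2% to 59.2% and from 63.5% to 49.7%, and with antibody at 72 h from 51.4% to 32.8% against PBS and from 57.1% to 42.4% against LPS. No single-gene result reversed among 116 results. Changes no larger than their SE in the main fit, which could most easily change sign, had been left out of the 116. For values without a test a reversal was counted only beyond 2 SE. The lack of reversals therefore says little. Under other settings 44 lost and 3 gained a call while 765 did not change, and in omissions of single libraries 153 lost and 1 gained one while 699 did not change. Libraries with the same number correlated over 0.1 in 11 of 24 pairs, and 10 of 15 libraries correlated best with their own number. Between the 2 antibody groups the correlations were 0.723, -0.0217 and 0.697 for numbers 1, 2 and 3. Between antibody and LPS at 72 h they were 0.267, 0.0108 and 0.319. Whether the number marks a pairing is therefore not settled, and the main fit does not use it.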
